A study of Mus musculus with 9 samples.

Results

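Ligand-gated neurotransmitter receptors are ion channels that open when glutamate, GABA, glycine or acetylcholine binds to them, and each is built from several subunits encoded by separate genes. The subunits were taken from the expression table by symbol: the ionotropic glutamate receptors (Gria, Grin, Grik and Grid), the GABA-A receptors (Gabr), the glycine receptors (Glra and Glrb) and the nicotinic acetylcholine receptors (Chrn). The rule matched 59 symbols of 21356 in the table. Of these, 58 encode subunits, and 1 encodes no subunit and was kept apart. The table gave 40 of the 58 subunits at a level that was tested, among 14029 genes tested.

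RNA of dissected midbrain tissue was sequenced from C57BL/6 fetuses at E13.5, with 3 fetuses of each of 3 genotypes. The floxed control was Gpr161 f/f without Cre, the Cre control was Gpr161 f/+;Wnt1-Cre/+ and the cKO was Gpr161 f/f;Wnt1-Cre/+, so all carried at least 1 floxed Gpr161 allele and both groups with Cre carried the Wnt1-Cre transgene. Wnt1-Cre is active in the dorsal midbrain and in the neural crest, not in every cell of the dissected tissue, and this transgene raises Wnt1 itself. Gpr161 encodes a ciliary receptor whose loss raises the output of the hedgehog pathway. The question asked here of the genotypes was whether the transcripts of the receptor subunits differed between the cKO and either control, and between the controls.

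The values are the log2 values that the authors deposited, normalized between libraries, and a difference of 1 is a 2-fold change. Differences of weakly expressed genes are compressed on this scale. Gpr161 itself had log2 values of 11.80, 11.74 and 11.78 in the floxed control, 11.77, 11.91 and 11.96 in the Cre control and 11.74, 11.95 and 11.94 in the libraries labelled cKO, so no fall of Gpr161 was seen there. Here a single value per gene cannot set the deleted exon apart from the others, and it does not check the labels. Gli1, a target of hedgehog signaling, was between 9.60 and 9.80 in the libraries labelled cKO and between 8.55 and 8.71 in the 6 control libraries. Wnt1 was between 10.57 and 11.01 in the 6 libraries with Cre and between 9.08 and 9.25 in the floxed control. The midbrain markers Otx2, En1 and En2 had group means between 10.71 and 12.43.

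AMPA receptors carry most of the fast current at excitatory synapses, and NMDA receptors, kainate receptors and the delta receptors are their relatives with slower, modulatory or organizing roles. GABA-A and glycine receptors are chloride channels, which in the fetal brain can depolarize immature neurons because these hold much chloride. Nicotinic receptors are cation channels opened by acetylcholine. Transcripts of many of these subunits appear as neurons leave the cell cycle, before synapses have matured.

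The AMPA receptor subunit encoded by Gria2 sets whether the channel lets calcium through, because adenosine deamination of its transcript recodes a glutamine codon in the pore-lining segment. That codon is shown for the 4 AMPA receptor genes because the level of Gria2 shifted against those of the other 3. Each line gives coding sequence of 1 exon of an annotated GENCODE vM21 transcript (GRCm38), 5′ to 3′ on the gene's strand, with the codon at the recoded position in capitals.
Gria1, chr11:57243074-57243116, plus strand, codon 600, exon 11: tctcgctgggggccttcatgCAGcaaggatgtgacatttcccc
Gria2, chr3:80706891-80706933, minus strand, codon 607, exon 11: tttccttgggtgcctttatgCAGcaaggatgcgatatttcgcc
Gria3, chrX:41610245-41610287, plus strand, codon 612, exon 11: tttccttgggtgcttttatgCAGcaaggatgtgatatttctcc
Gria4, chr9:4464117-4464159, minus strand, codon 608, exon 12: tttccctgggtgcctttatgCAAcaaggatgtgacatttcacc
Of these 43 bases, 40 in Gria3, 38 in Gria4 and 35 in Gria1 were the same as in Gria2. The table holds levels and no reads, so editing of the codon was not measured.

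Against the floxed control, 27 of the 40 subunits tested were lower in the cKO and 1, Gabrp, was higher (p adjusted over all genes tested under 0.05 by limma, the test behind every adjusted p given). Over all genes tested, 18.8% were lower and 19.5% were higher in this comparison. The median log2 fold change of the 40 subunits was -0.39, beside 0.01 over all genes tested. With a fold change over 1.5 as well, 10 subunits were lower and 1 was higher, against 1.58% and 1.34% of all genes. At an unadjusted p under 0.05 by limma, 29 subunits were lower and 2 higher, against 3229 and 3514 of the 14029 genes tested.

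Relative to the Cre control, 10 of the 40 subunits were lower in the cKO and 1, Chrna5, was higher, while 4.85% and 4.86% of all genes tested were lower and higher. The median log2 fold change was -0.21, beside 0.01 over all genes. With a fold change over 1.5, 3 subunits were lower and 0 were higher, against 0.228% and 0.335% of all genes. The count of lower subunits was 25 without Cre control replicate 1, and it was 5 when Cre control replicate 3 or cKO replicate 1 was left out. Chrna5 was the 1 subunit higher, and 0 were higher without Cre control replicate 2, cKO replicate 2 or cKO replicate 3. Without Cre control replicate 3 the count was again 1, but Chrna5 did not pass there and a different subunit did. At an unadjusted p under 0.05 by limma, 22 subunits were lower and 4 higher, against 1952 and 2157 of the 14029 genes tested.

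Between the controls, 0 of the 40 subunits passed by limma in either direction, and 0.00713% and 0.0499% of all genes were lower and higher in the Cre control. At an unadjusted p under 0.05 by limma, 12 subunits were lower in the Cre control and 1 was higher, against 1220 and 1231 of the 14029 genes tested. The median log2 fold change of the subunits between the controls was -0.17, with 32 of 40 below 0, beside -0.001 over all genes. The controls shared by these comparisons make them dependent on each other.

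The 10 subunits lower relative to the Cre control were also lower against the floxed control, and 8 of them are described here: Gria2, Gria3, Gabra2, Gabra3, Gabra5, Gabrb2, Gabrq and Glra2. Of all genes, 4.66% passed as lower against both controls and 4.68% as higher, and 0 subunits were higher against both. In 16 of the 40 subunits all 3 cKO libraries lay below all 6 control libraries, and in 0 they lay above them, against 11.5% and 14.7% of all genes.

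**Figure D1:**
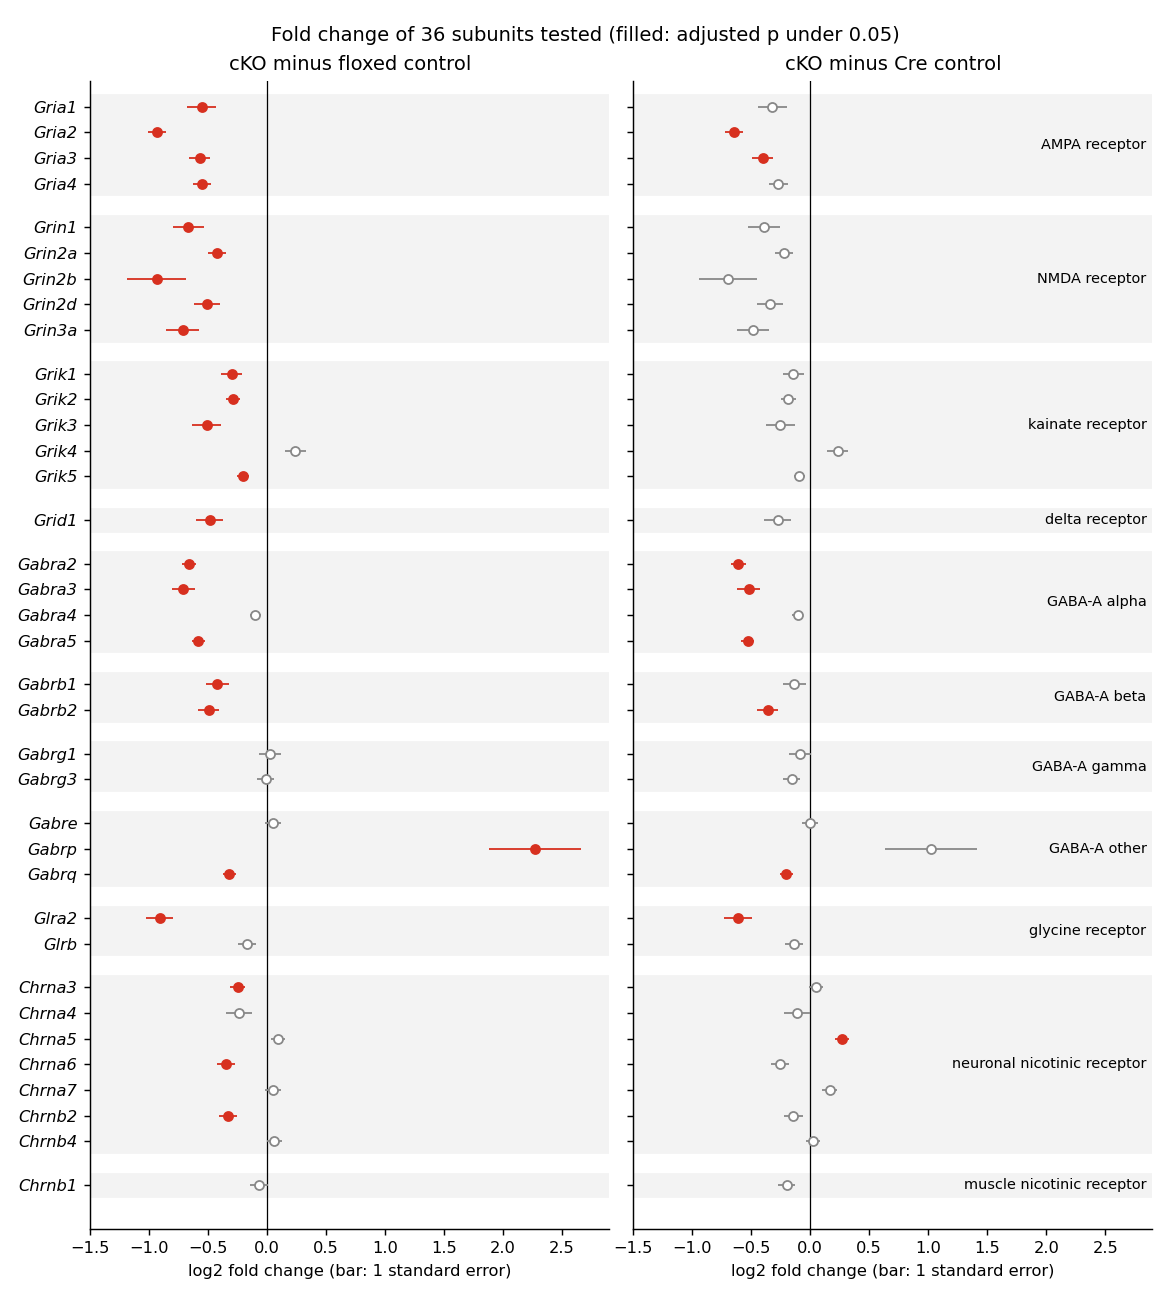
Log2 fold change (x axis, with 1 standard error) of 36 of the subunits tested, grouped by receptor class, for cKO minus floxed control (left) and cKO minus Cre control (right). Filled red points passed an adjusted p under 0.05; of those plotted, 24 on the left and 8 on the right passed as lower, and Gabrp (left) and Chrna5 (right) as higher.

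Among the ionotropic glutamate receptors, 15 of 16 subunits tested were lower in the cKO against the floxed control, with a median log2 fold change of -0.53, and 3 were lower relative to the Cre control (median -0.30). The shares lower over all genes tested were 18.8% and 4.85%. Gria2, which encodes the AMPA subunit that limits calcium entry, lies on chromosome 3 from 80681450 to 80802835. Its log2 values were 12.16, 11.95 and 11.98 in the floxed control, 11.65, 11.78 and 11.80 in the Cre control and 10.97, 11.10 and 11.23 in the cKO. The 3 groups did not overlap, and the cKO was lowest. The fold change was -0.94 ± 0.076 (log2, standard error) against the floxed control (adjusted p = 0.000156) and -0.65 ± 0.076 relative to the Cre control (adjusted p = 0.0024), which is 0.523 and 0.639 of the control level.

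Gria3, an AMPA subunit on chromosome X from 41400854 to 41678601, had log2 values of 9.91, 9.65 and 9.67 in the floxed control, 9.44, 9.64 and 9.65 in the Cre control and 9.03, 9.27 and 9.21 in the cKO. All cKO libraries lay below all controls, and the highest Cre control met the lowest floxed control at 9.65. The change was -0.57 relative to the floxed control (adjusted p = 0.00143) and -0.40 relative to the Cre control (adjusted p = 0.0264). The second call was lost without Cre control replicate 2 or without replicate 3 of that group (adjusted p = 0.0724 and 0.0933) and without cKO replicate 1 or 3 (0.105 and 0.0502). Gria1 and Gria4, the other AMPA subunits, fell by 0.56 (adjusted p = 0.00702) and by 0.55 (adjusted p = 0.00102) against the floxed control, and did not pass relative to the Cre control, with -0.32 (adjusted p = 0.125) and -0.27 (adjusted p = 0.0581).

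Within each library, the log2 value of Gria2 was set against those of the other AMPA subunits, so that a change shared by all of them drops out. Gria2 exceeded Gria4 by 1.60, 1.49 and 1.36 in the floxed control, by 1.5, 1.49 and 1.44 in the Cre control and by 1.13, 1.06 and 1.11 in the cKO. Gria2 exceeded Gria1 by 2.31, 2.23 and 2.24, by 2.41, 2.17 and 2.04, and by 1.94, 1.79 and 1.90 in the same order of groups. Gria2 exceeded Gria3 by 2.25, 2.31 and 2.31, by 2.20, 2.14 and 2.15, and by 1.93, 1.82 and 2.01. In all 3 pairs the cKO libraries lay below the 6 controls, with mean differences between cKO and floxed control of -0.38, -0.39 and -0.37 for Gria1, Gria4 and Gria3. Relative to the Cre control these were -0.33, -0.38 and -0.24. An exact permutation test of 3 against 3 libraries cannot give a p under 0.1, so these differences are a description.

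Per kilobase of the longest annotated transcript, Gria2 made up 40.3% ± 0.95 (SD, n = 3) of the summed linear level of the 4 AMPA subunits in floxed controls, 39.4% ± 1.1 in Cre controls and 34.2% ± 0.94 in the cKO. Gria4 made up 27.5% ± 1.6, 27.0% ± 0.38 and 30.4% ± 0.19. Per kilobase of coding length, the share of Gria2 was 56.9%, 56.0% and 50.4%. The size of a share thus depended on the length used, and the lower share in the cKO did not.

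**Figure D2:**
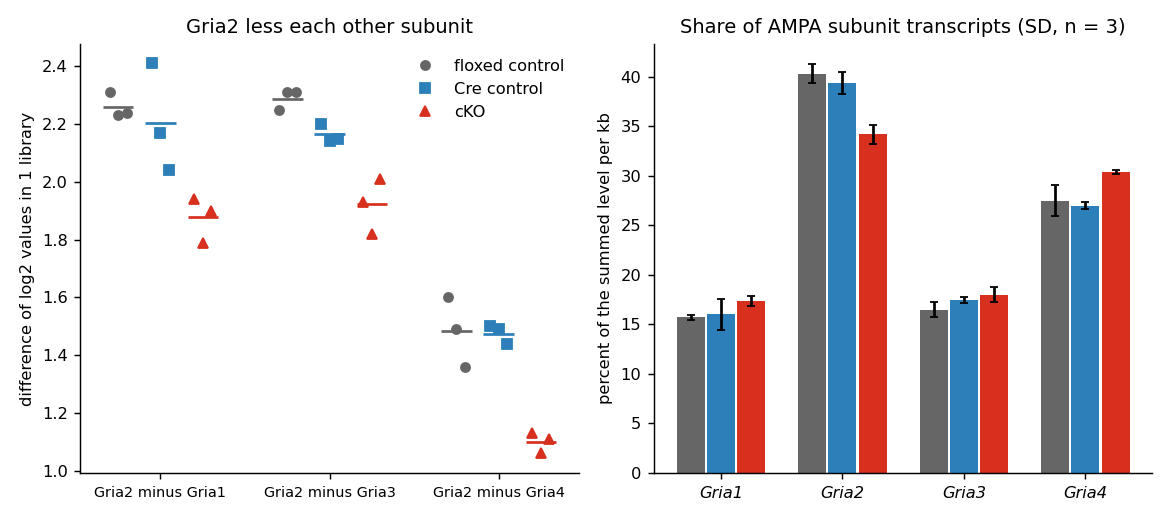
Left: difference of log2 values between Gria2 and each other AMPA subunit (y axis) within each library, as points, with group means as lines. Right: share of each AMPA subunit in their summed linear level per kilobase of transcript (percent, bars with SD, n = 3), where Gria2 was 40.3%, 39.4% and 34.2% in the floxed control, Cre control and cKO.

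All 5 NMDA receptor subunits tested fell against the floxed control (median log2 fold change -0.67), and 0 of 5 passed relative to the Cre control by limma, with a median of -0.39 and 5 of 5 below 0 at an unadjusted p under 0.05. At that unadjusted limit, 1952 of the 14029 genes tested were lower relative to the Cre control. Grin1, the obligatory subunit of NMDA receptors, had the highest level per kilobase of transcript in its class, while per kilobase of coding length Grin2b was higher (249 against 157). The log2 values of Grin1 were 9.11, 9.09 and 9.08 in the floxed control, 8.50, 8.98 and 8.98 in the Cre control and 8.18, 8.54 and 8.56 in the cKO. Cre control replicate 1 lay below 2 of the cKO libraries, so cKO and Cre control overlapped. Grin1 fell by 0.67 against the floxed control (adjusted p = 0.00422) and had -0.39 relative to the Cre control (adjusted p = 0.0923).

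Grin2b, the glutamate-binding subunit that is typical of the fetal brain, was lower than in the floxed control by a log2 fold change of -0.94 (adjusted p = 0.0148), the size of the change in Gria2 with a standard error of 0.249. Its call was lost when floxed control replicate 1 or cKO replicate 1 was left out (adjusted p = 0.0586 and 0.0625). Relative to the Cre control it had -0.70 (adjusted p = 0.1), and its Cre control values reached from 9.56 to 10.55. Grin3a, Grin2d and Grin2a, which alter the conductance and kinetics of the channel, fell by 0.72, 0.51 and 0.42 against the floxed control. Relative to the Cre control they had -0.48 (adjusted p = 0.0525), -0.34 (0.0798) and -0.22 (0.0904). Grin2c and Grin3b were under the filter.

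Of the 5 kainate receptor subunits, 4 fell against the floxed control and 0 of 5 passed relative to the Cre control by limma, with medians of -0.29 and -0.14. At an unadjusted p under 0.05, 1 kainate subunit was lower and 1 higher relative to the Cre control. Of the 14029 genes tested, 1952 and 2157 were. Grik5, a high-affinity subunit that needs a partner to form a channel, had the highest level per kilobase of all subunits in the ionotropic glutamate group. Its log2 values were 12.09, 12 and 12 in the floxed control, 11.85, 11.92 and 11.99 in the Cre control and 11.77, 11.83 and 11.88 in the cKO, and it fell by 0.21 against the floxed control (adjusted p = 0.00796). The cKO and the Cre control overlapped. Grik3, Grik2 and Grik1, subunits that can form channels alone, fell by 0.51, 0.29 and 0.30. Grik1 lost its call when floxed control replicate 1 or 3 (adjusted p = 0.0706 and 0.0635) or cKO replicate 1 or 3 was left out (0.0862 and 0.0587).

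Grik4, the other high-affinity kainate subunit, was the 1 ionotropic glutamate subunit with values above 0 in both comparisons, 0.24 (adjusted p = 0.0596) and 0.23 (adjusted p = 0.121), and passed in neither. Grik4 less Grik5 in the same library was between -3.13 and -3.02 in the cKO, and between -3.60 and -3.24 in the 6 controls. The 2 high-affinity subunits thus lay nearer to each other in every cKO library.

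Grid1, which encodes a delta receptor, a relative of the glutamate receptors that binds cerebellin, had log2 values of 8.69, 8.71 and 8.83 in floxed controls, of 8.35, 8.56 and 8.67 in Cre controls and of 8.03, 8.25 and 8.48 in the cKO. It fell by 0.49 against the floxed control (adjusted p = 0.00806) and overlapped with the Cre control (-0.28, adjusted p = 0.14).

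Among the GABA-A receptors, 8 of 14 subunits tested fell and 1 rose against the floxed control, and 6 fell and 0 rose relative to the Cre control, with medians of -0.38 and -0.18. The alpha subunits, which with beta subunits form the GABA-binding site, held 3 of the 6. Gabra2, on chromosome 5 from 70957597 to 71095849, had log2 values of 8.60, 8.56 and 8.65 in the floxed control, 8.59, 8.46 and 8.60 in the Cre control and 7.87, 8.01 and 7.95 in the cKO. The controls overlapped, and every cKO library lay below all of them. Gabra2 fell by 0.66 relative to the floxed control (adjusted p = 0.000215) and by 0.61 relative to the Cre control (adjusted p = 0.00132).

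Gabra5, an alpha subunit known from receptors outside synapses, lies on chromosome 7 from 57407672 to 57510059. Its values were 7.50, 7.46 and 7.45 in the floxed control, 7.37, 7.43 and 7.47 in the Cre control and 6.83, 6.98 and 6.86 in the cKO, and again the controls overlapped and the cKO lay below both. It fell by 0.58 (adjusted p = 0.000237) and by 0.53 (adjusted p = 0.00166). Gabra2 and Gabra5 differed by -0.05 each between the controls, whereas Gria2 and Glra2 differed by -0.29 and -0.30.

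Gabra3, the alpha subunit with the highest level per kilobase, lies on chromosome X from 72432681 to 72656848. Its values were 9.80, 9.63 and 9.76 in the floxed control, 9.33, 9.62 and 9.67 in the Cre control and 8.87, 9.11 and 9.07 in the cKO, where every library lay below all controls. It fell by 0.71 (adjusted p = 0.0008) and by 0.52 (adjusted p = 0.0152), and the second call was lost without Cre control replicate 3 or cKO replicate 1 (adjusted p = 0.0577 and 0.0603). Gabra4, an alpha subunit that is prominent in the mature brain, passed in neither comparison, with -0.10 (adjusted p = 0.13) and -0.11 (adjusted p = 0.175). All Gabra4 values in the cKO lay below all controls.

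The beta subunits complete the GABA-binding site and anchor the receptor. Gabrb1 fell by 0.42 against the floxed control (adjusted p = 0.00762) and had -0.14 relative to the Cre control (adjusted p = 0.376).

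Gabrb2, on chromosome 11 from 42419757 to 42629028, had values of 10.16, 10.05 and 10.11, of 9.86, 9.89 and 10.17, and of 9.46, 9.66 and 9.71 in the floxed control, Cre control and cKO. The cKO lay below all controls, which overlapped with each other. It fell by 0.50 (adjusted p = 0.00259) and by 0.36 (adjusted p = 0.0359). The second call of Gabrb2 was lost without floxed control replicate 1 or 3 (adjusted p = 0.0516 and 0.0582), Cre control replicate 2 or 3 (0.0557 and 0.0979) or cKO replicate 1 or 2 (0.135 and 0.0718).

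Gamma subunits bring GABA-A receptors to synapses. Gabrg1 and Gabrg3 had 0.03 and -0.01 against the floxed control (adjusted p = 0.842 and 0.894), and did not pass relative to the Cre control either (-0.09 and -0.16, adjusted p = 0.548 and 0.178).

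Gabrq, the theta subunit, on chromosome X from 72825178 to 72842602, had values of 6.97, 6.93 and 6.93 in the floxed control, 6.75, 6.85 and 6.88 in the Cre control and 6.59, 6.67 and 6.60 in the cKO, with no overlap between the groups. It fell by 0.32 (adjusted p = 0.00204) and by 0.20 (adjusted p = 0.046), the smallest changes of the 8. Its second call was lost in 8 of the 9 fits without 1 library, all but the one without Cre control replicate 1, with adjusted p between 0.0619 without floxed control replicate 2 and 0.157 without cKO replicate 1. Gabre, the epsilon subunit, had 0.05 and -0.004 and passed in neither comparison (adjusted p = 0.611 and 0.974).

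Gabrp, the pi subunit, known mainly from epithelia outside the brain, was the 1 subunit that rose against the floxed control. It lies on chromosome 11 from 33550781 to 33578959. Its log2 values were 6.74, 7.49 and 6.72 in the floxed control, 7.20, 9.03 and 8.45 in the Cre control and 9.52, 9.02 and 9.21 in the cKO. The Cre control reached from the floxed to the cKO level, and overlapped with both. The fold change was 2.27 ± 0.389 (log2, standard error) against the floxed control (adjusted p = 0.0021), a 4.82-fold higher level, and 1.02 ± 0.389 relative to the Cre control (adjusted p = 0.116). The difference between the controls was 1.25 (adjusted p = 0.188).

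The rho subunits Gabrr1, Gabrr2 and Gabrr3, known from the retina, the delta subunit Gabrd and Gabra6, known from cerebellar granule cells, were under the filter. Their log2 values were between -1.5 (Gabra6) and 3.66 (Gabrr3).

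Glycine receptors are made of alpha subunits, which can form channels alone, and of the beta subunit Glrb, which ties them to gephyrin. Glra2, the alpha subunit of fetal neurons, lies on chromosome X from 165129017 to 165327393. Its log2 values were 9.58, 9.52 and 9.66 in the floxed control, 9.10, 9.44 and 9.32 in the Cre control and 8.41, 8.77 and 8.85 in the cKO, with no overlap between the groups. It fell by 0.91 relative to the floxed control (adjusted p = 0.000677) and by 0.61 relative to the Cre control (adjusted p = 0.0173, and 0.062 without Cre control replicate 3).

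Glrb passed in neither comparison, with -0.17 (adjusted p = 0.0973) and -0.14 (adjusted p = 0.242). Glra2 less Glrb in the same library was 0.91, 0.89 and 1.01 in the floxed control, 0.29, 0.92 and 0.78 in the Cre control and -0.11, 0.26 and 0.43 in the cKO, and 1 Cre control library lay within the cKO values. Glra1, the alpha subunit of the mature spinal cord and brainstem, Glra3 and Glra4 were under the filter, with log2 values between 1.48 (Glra4) and 3.54 (Glra1).

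**Figure D3:**
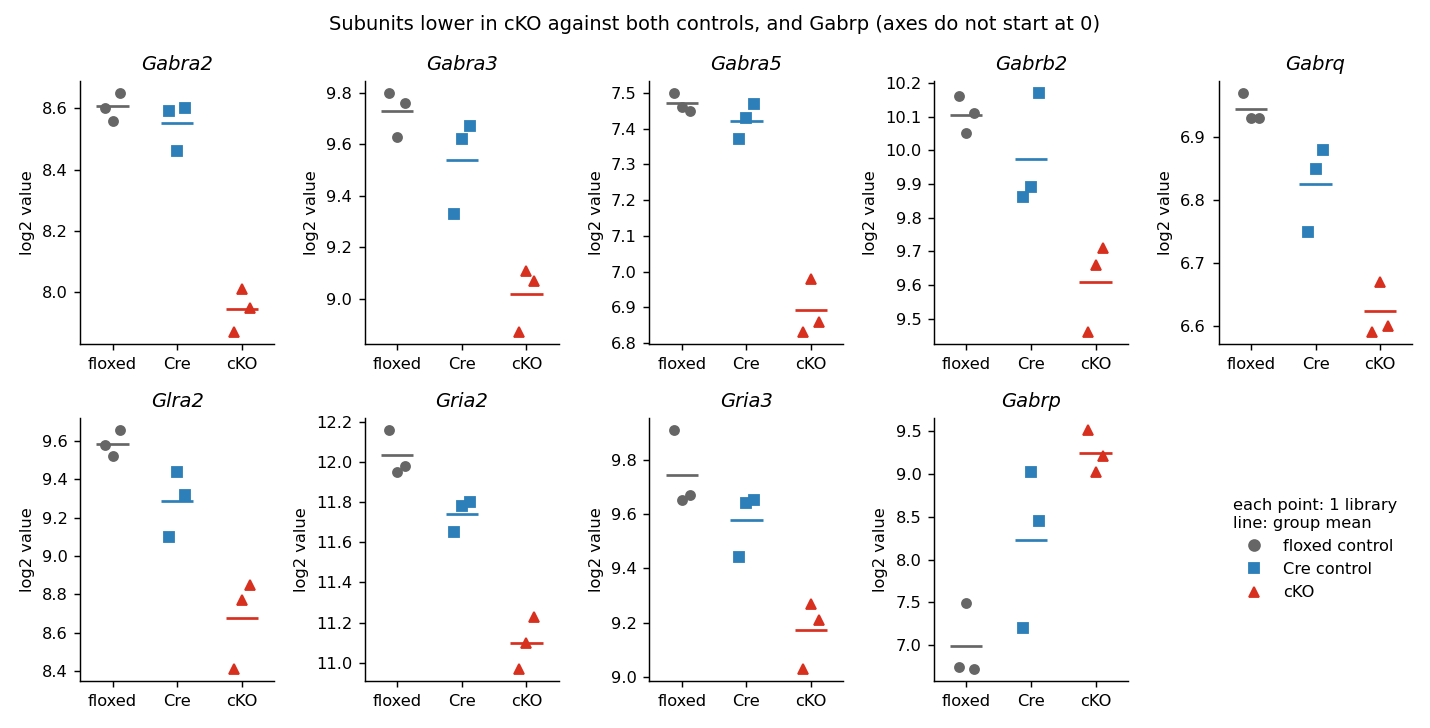
Log2 value (y axis, which does not start at 0) of 8 subunits lower in the cKO against both controls, and of Gabrp, in each of the 9 libraries (points) with group means (lines). All 3 cKO libraries lie below all 6 controls in each of the 8, while the Cre control values of Gabrp, 7.20 to 9.03, span much of the range between the floxed control and the cKO.

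Of the 8 nicotinic subunits tested, 3 fell against the floxed control (median log2 fold change -0.16), beside 18.8% of all genes tested. Relative to the Cre control 0 fell and 1 rose (median -0.05), beside 4.85% and 4.86% of all genes tested. At an unadjusted p under 0.05, 2 were lower and 2 higher there, against 1952 and 2157 of the 14029 genes tested. Whether this class differed from the others was not tested. Chrnb2, which with Chrna4 forms the main nicotinic receptor of the brain, had about the same level per kilobase of transcript as Chrna4 (350 and 348 as a linear mean over the 9 libraries). On that scale Chrna4 was slightly higher in the Cre control (348 against 346) and in the cKO (319 against 312). Per kilobase of coding length Chrnb2 was higher over the 9 libraries (1030 against 826). The log2 values of Chrnb2 were 11.26, 11.26 and 11.36 in the floxed control, 10.92, 11.16 and 11.24 in the Cre control and 10.86, 11 and 11.03 in the cKO. It fell by 0.33 against the floxed control (adjusted p = 0.00879) and overlapped with the Cre control (-0.14, adjusted p = 0.249). Its exons overlap those of Adar on the other strand, and reads of overlapping genes cannot be told apart where counting ignores strand.

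Chrna4 had -0.24 and -0.11 and passed in neither comparison (adjusted p = 0.108 and 0.519). Chrna6 and Chrna3, an alpha subunit of dopaminergic neurons and one of autonomic ganglia, fell by 0.35 and 0.25 against the floxed control (adjusted p = 0.00518 and 0.0105). Relative to the Cre control they had -0.26 (adjusted p = 0.0546) and 0.05 (adjusted p = 0.621). Chrna7, whose subunit forms channels alone, and Chrnb4 passed in neither comparison.

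Chrna5, an accessory subunit that joins nicotinic receptors without forming the main binding site, had log2 values between 7.67 and 7.71 in the floxed control, between 7.48 and 7.57 in the Cre control and between 7.67 and 7.87 in the cKO. The cKO lay above the Cre control and overlapped with the floxed control. It rose by 0.27 relative to the Cre control (adjusted p = 0.0297) and had 0.09 against the floxed control (adjusted p = 0.266). The call was lost when Cre control replicate 2 or 3 (adjusted p = 0.0508 and 0.101) or cKO replicate 2 or 3 was left out (0.0834 and 0.0748).

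Of the subunits of the muscle receptor, Chrnb1 alone was tested, with values of 5.05, 4.95 and 5.07, of 5.18, 5.29 and 4.99, and of 4.93, 4.99 and 4.94 in the floxed control, Cre control and cKO, and it passed in neither comparison. Chrna1, Chrnd, Chrne and Chrng had log2 values of at most 3.44 (Chrna1). Of 10 skeletal muscle genes, 2, Ttn and Myh3, passed the filter, with log2 values from 5.02 to 6.04 and from 5.09 to 5.33, and neither passed in either comparison (also at an unadjusted p under 0.05). Tnnt3 lay just under the filter in most libraries, from 4.63 to 4.85, and the regulators Myod1 and Myog lay between 0.68 and 1.30. The summed level of the list was between 7.22 and 7.48 in the floxed control, 7.24 and 7.48 in the Cre control and 7.19 and 7.45 in the cKO. Chrna2, Chrna9, Chrna10 and Chrnb3 were also under the filter.

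Many receptor genes lie side by side in the genome, so members of 1 cluster were compared on GRCm38. On chromosome 7, Gabra5 fell against both controls, and Gabrg3 had -0.01 and -0.16 (adjusted p = 0.894 and 0.178). On chromosome 5, Gabra2 fell against both controls, Gabrb1 against the floxed control, and Gabrg1 and Gabra4 against neither. On chromosome X, Gabra3 and Gabrq fell and Gabre did not pass. On chromosome 9, Chrna3 fell against the floxed control and its neighbours Chrna5 and Chrnb4 did not pass there. On chromosome 3, Gria2 fell against both controls and Glrb against neither.

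The 27 subunits that fell against the floxed control had a median gene length of 209.3 kb, with a range from 10.7 to 1448.4 kb. The median was 52.0 kb for the 13 other subunits tested (11.9 to 670.7 kb) and 25.5 kb over the 13901 genes tested with a known length. Chrna6, Chrna3, Gabrq and Chrnb2 fell and were shorter than that last median. The share that fell also differed with the level. Of the 10 subunits with a mean log2 value from 10 to 13, 9 fell (90.0%), against 21.8% of all genes in that range. Of the 5 with a mean from 4 to 6, 1 fell (20%), against 11.1% of all genes there. Low values are compressed in this table, and the part of that in this pattern was not tested.

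Upstream sequence of RefSeq genes (GRCm38.p6) was found for 41 of the 58 subunits, in 46 windows of 250 bases before a start site. The windows of Gria2, Gabra2 and Glra2, which fell against both controls, and of Gabrp, which rose against the floxed control, are printed 5′ to 3′ on the gene's strand, with any motif match in capitals.
Gria2, chr3:80802836-80803085, minus strand: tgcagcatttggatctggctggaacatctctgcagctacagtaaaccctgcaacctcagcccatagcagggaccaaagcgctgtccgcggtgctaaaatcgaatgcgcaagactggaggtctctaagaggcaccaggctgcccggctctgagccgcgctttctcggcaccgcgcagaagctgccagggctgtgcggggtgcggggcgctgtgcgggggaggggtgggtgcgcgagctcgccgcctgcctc
Gabra2, chr5:71095850-71096099, minus strand: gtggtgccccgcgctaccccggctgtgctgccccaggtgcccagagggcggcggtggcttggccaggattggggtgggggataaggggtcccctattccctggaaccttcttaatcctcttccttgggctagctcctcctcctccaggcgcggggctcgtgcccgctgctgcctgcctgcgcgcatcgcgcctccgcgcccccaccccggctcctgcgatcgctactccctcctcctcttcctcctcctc
Glra2, chrX:165327394-165327643, minus strand: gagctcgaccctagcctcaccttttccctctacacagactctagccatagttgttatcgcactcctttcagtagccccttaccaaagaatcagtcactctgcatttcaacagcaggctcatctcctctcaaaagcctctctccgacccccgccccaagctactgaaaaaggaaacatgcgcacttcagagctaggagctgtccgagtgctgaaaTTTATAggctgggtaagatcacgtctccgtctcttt
Gabrp, chr11:33578958-33579207, minus strand: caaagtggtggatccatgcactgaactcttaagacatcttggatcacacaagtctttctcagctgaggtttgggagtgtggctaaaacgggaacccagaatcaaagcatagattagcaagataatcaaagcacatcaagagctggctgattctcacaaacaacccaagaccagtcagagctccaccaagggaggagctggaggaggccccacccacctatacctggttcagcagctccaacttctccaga
The capitals mark TATAAA, the TATA box, read on the other strand in Glra2. The windows hold 64.8% G and C in Gria2, 70% in Gabra2, 50.4% in Glra2 and 49.2% in Gabrp, beside a median of 52.4% over 32851 windows of all genes and of 58.8% over the subunits.

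Both strands of these windows were searched for 4 motifs, and a match is only a description of the letters. CAGCACC, the left core of the RE1 element that the repressor of neuronal genes REST binds, was in 3 of the 46 subunit windows (Chrna9, Chrna10 and Gabrq), or 6.52%, against 5.73% of all windows. TGGGTGGTC, a binding motif of Gli factors, was in 0 of 46 and in 0.225% of all windows. TGACGTCA, the cAMP response element, was in 0 of 46 and in 1.55% of all. TATAAA was in 6 of 46 (13%, with Gabra3 in 2 windows) and in 12.4% of all.

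Genes whose products work with the receptors were followed as lists written from general knowledge. Over all genes tested, 18.8% fell and 19.5% rose against the floxed control, and 4.85% and 4.86% relative to the Cre control. Of 11 AMPA receptor auxiliary subunits tested, 7 fell against the floxed control (median log2 fold change -0.28) and 3 relative to the Cre control: Cacng2 (stargazin), with -0.58 and -0.40, Cnih2, with -0.44 and -0.28, and Gsg1l, with -0.81 and -0.43. Cacng4, another transmembrane AMPA receptor regulator, had -0.14 and -0.10 and passed in neither comparison (adjusted p = 0.0828 and 0.292).

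Of 18 genes that anchor glutamate receptors, 14 fell and 2, Dlg1 and Homer3, rose against the floxed control, and 6 fell relative to the Cre control. Among these were Dlg2 (PSD-93), with -0.61 and -0.59, Neto2, an auxiliary kainate receptor subunit, with -0.48 and -0.38, and Shank2, Dlgap1 and Grip2, with values between -0.49 and -0.32 against the floxed control. Of 6 partners of delta receptors, 5 fell against the floxed control and 3 relative to the Cre control. Among those were Cbln2 and Cbln4, cerebellins that bind delta receptors, with -0.78 and -0.51 for Cbln2 and -0.48 and -0.36 for Cbln4, in the same order of controls.

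Of 9 genes of the inhibitory postsynapse, 7 fell against the floxed control (median -0.33) and 5 relative to the Cre control, among them Nlgn2, Iqsec3, Slitrk3 and Shisa7. Shisa7, a GABA-A receptor auxiliary protein, fell by 0.82 and 0.51. Gphn, the scaffold gephyrin, fell by 0.23 against the floxed control (adjusted p = 0.00612) and had -0.13 relative to the Cre control (adjusted p = 0.114). Of the 2 chloride transporters, the exporter Slc12a5 (KCC2) fell by 0.76 against the floxed control (adjusted p = 0.00785), with -0.42 relative to the Cre control (adjusted p = 0.142), and the importer Slc12a2 (NKCC1) had -0.01 and 0.03.

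Of 8 genes for nicotinic receptor assembly and clustering, 3 fell against the floxed control, and 1, Lrp4, the agrin receptor, relative to the Cre control (-0.38, adjusted p = 0.0109). Of 11 genes for transmitter synthesis and uptake, 8 fell against the floxed control and 3 relative to the Cre control. Among these were Slc17a6, the vesicular glutamate transporter of midbrain neurons, with -0.68 and -0.47, and Ache, which breaks down acetylcholine, with -0.38 and -0.29. Gad1, which makes GABA, fell by 0.33 against the floxed control (adjusted p = 0.0338) and had -0.11 relative to the Cre control (adjusted p = 0.52). Slc32a1, the vesicular GABA transporter, had -0.20 and 0.08 and passed in neither comparison.

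Of 7 genes of the REST pathway, Rcor2 (0.24) and Hdac1 (0.31) rose against the floxed control, as did 19.5% of all genes tested. Hdac1 also rose relative to the Cre control (0.19, adjusted p = 0.0258), as did 4.86% of all genes. Rest itself had 0.11 and 0.06 and passed in neither comparison (adjusted p = 0.178 and 0.535).

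Markers of neurons moved with the subunits. The shares of all genes tested apply beside the marker lists too: 18.8% lower and 19.5% higher against the floxed control. Relative to the Cre control these shares were 4.85% and 4.86%. All 12 pan-neuronal genes fell against the floxed control (median log2 fold change -0.51), and 3, Dcx, Stmn2 and Snap25, fell relative to the Cre control (median -0.22). The log2 of their summed linear level was between 17.35 and 17.47 in the floxed control, 16.97 and 17.29 in the Cre control and 16.82 and 17.00 in the cKO. For all 58 subunits it was between 14.99 and 15.10, 14.69 and 14.97, and 14.48 and 14.65. In bulk tissue, fewer neurons and less RNA of a gene per neuron cannot be told apart.

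The progenitor markers went the other way: 8 of 10 rose against the floxed control (median 0.33), and 3, Sox2, Nes and Vim, rose relative to the Cre control. Their summed level was between 16.63 and 16.70 in the floxed control, 16.67 and 16.80 in the Cre control and 16.86 and 16.98 in the cKO. Of 8 mesenchymal and meningeal markers, 7 rose against the floxed control and 0 passed relative to the Cre control by limma (2 at an unadjusted p under 0.05), with a summed level between 14.80 and 15.69, 15.14 and 15.90, and 15.93 and 15.99. At that unadjusted limit, 2157 of the 14029 genes tested were higher relative to the Cre control. Of 7 erythroid genes, 5 rose against the floxed control and 4 relative to the Cre control, with a summed level between 16.64 and 17.42, 16.92 and 17.11, and 17.33 and 18.24. Of the 5 hindbrain genes tested, 4 were lower in the cKO than in the floxed control and 0 than in the Cre control, also at an unadjusted p under 0.05, with a summed level between 8.66 and 9.25, 8.08 and 8.51, and 8.23 and 8.37. The part of these cells in the values of the subunits was not tested.

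Of 10 midbrain genes, 4 fell and 1 rose against the floxed control, and 2, Pou4f1 and Tfap2b, fell and 1, Gata2, rose relative to the Cre control too, with a median log2 fold change of 0.01 and -0.09. Of 6 genes of peripheral ganglia and neural crest tested, 2 fell against the floxed control, and of 6 endothelial genes 3 rose there, while 0 of either list passed relative to the Cre control by limma and 1 of each did at an unadjusted p under 0.05. Of 6 genes of microglia and macrophages and of 4 forebrain genes tested, 0 passed in either comparison. At an unadjusted p under 0.05, 2 of the microglia and macrophage genes were higher against the floxed control, as were 3514 of the 14029 genes tested. Relative to the Cre control, 1952 of all genes tested were lower and 2157 higher at that unadjusted limit. The forebrain gene Dlx1 had log2 values of 5.33, 6.69 and 7.75 in the Cre control and between 5.26 and 5.76 in the other libraries. The summed level of the forebrain list was between 9.47 and 9.57 in the floxed control, 9.31 and 10.05 in the Cre control and 9.44 and 9.61 in the cKO. The part of this spread in the subunit counts was not tested.

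To set the subunits beside the neuronal markers, the mean log2 value of the 12 pan-neuronal genes in each library was subtracted from that of each of the 8 subunits named, a step chosen after the values were seen. These 8 had been picked as lower in the cKO against both controls, which favours a difference left after the subtraction. The median log2 fold change over all 40 subunits tested was -0.39 against the floxed control and -0.21 relative to the Cre control. The pan-neuronal mean itself differed by -0.48 between cKO and floxed control and by -0.21 between cKO and Cre control. Gria2 less this mean was -0.91, -1.08 and -1.20 in the floxed control, -1.01, -1.13 and -1.13 in the Cre control and -1.54, -1.57 and -1.46 in the cKO, so that the cKO lay below all controls by this measure too. The same held for Gabra2, Gabra3 and Glra2. Glra2 differed by -0.44 and -0.40 from the floxed and the Cre control on this scale, and Gabra3 by -0.24 and -0.31.

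For Gria3, Gabra5, Gabrb2 and Gabrq, the cKO and control values overlapped once the neuronal mean was subtracted. Gabrb2 differed by -0.02 from the floxed control and Gabrq by 0.15. Gabrp less the neuronal mean was between -3.65 and -2.99 in the cKO and between -6.46 and -3.88 in the controls. The neuronal mean was lower in the cKO, so its subtraction widened the difference of Gabrp. Without it, the highest Cre control value of Gabrp (9.03) lay above the lowest cKO value (9.02).

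**Figure D4:**
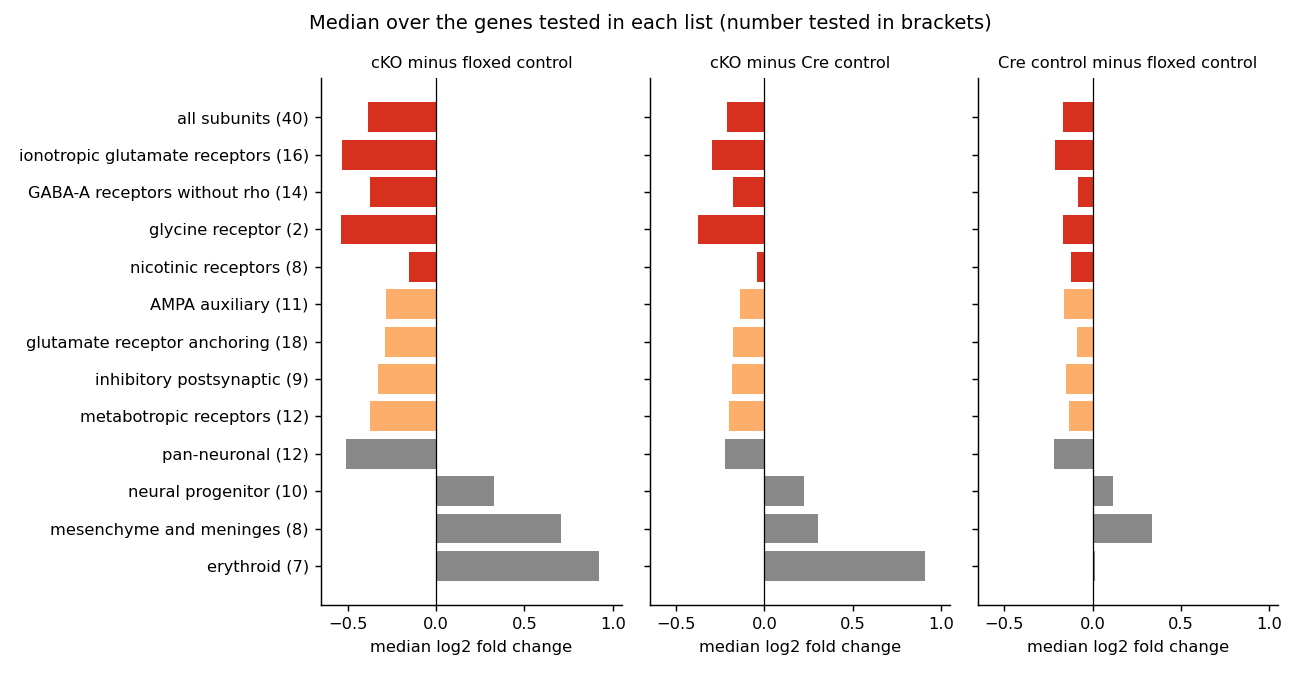
Median log2 fold change (x axis) over the genes tested in each list, for 3 comparisons, with receptor subunits in red, companion genes in orange and cell type markers in grey. Against the floxed control the median was -0.39 for all 40 subunits, -0.51 for the 12 pan-neuronal genes and 0.33 for the 10 progenitor genes; the lists carry no error bars, since their genes are not replicates.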

How the data were processed

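Poly-A selected RNA of the midbrain of 9 fetuses was sequenced by the authors (NEBNext Ultra RNA). The submitters' processing notes name FastQC 0.10.1, kallisto 0.46.1, DESeq2 and the build mm10, with no roles. The authors deposited 1 table of log2 values, normalized between libraries, with little spread at low values. The transformation is not given in the sources used here, and the log2 scale was read from the values, which run from -2.12 to 17.95. The table holds no counts, so depth is unknown. The column names say KO where the sample labels say Homo, and columns were matched by genotype and number.

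A gene was tested if its back-transformed value reached 1 cpm in 3 or more libraries (a log2 value of 4.73 to 4.78). The test was limma 3.58.1 in R 4.3.3 on all 9 libraries, with the genotype as the factor (eBayes with a trend, two-sided), with Benjamini-Hochberg adjustment over 14029 genes. Passing means an adjusted p under 0.05, and rose and fell are used of such genes. In simulated data, 98.5% of 200 genes changed by 1 on the log2 scale were recovered in cKO against floxed control. Smaller changes were not simulated. The falls of the subunits were smaller, with medians of -0.39 and -0.21 against the floxed and the Cre control, so this rate does not apply to them. Only the spread between these fetuses enters the tests. Positions are from GENCODE vM21. Values in every library are given, for the genes reported, for subunits passing against both controls and for the highest tested subunit of each class per kb. Chrna5 and Grin2b, and the pairs set against each other, were chosen beyond that rule. The members and the lists were chosen with earlier results of these data known. Exons of 10 tested genes that the rule matched, with the 1 that encodes no subunit, overlap a gene on the other strand, and use of strand is not stated. Gabra5, Chrnb2, Grin1, Grin2b and Grin2d are among them, as are Gabra4 and Gabrb1, which overlap each other. Values of some genes, including some subunits and members of the lists, are not reported here, and counts and medians include them.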

Additional observations from a re-analysis of the deposited data

How the results depend on the processing

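Over the alternatives, 27 subunits lower against the floxed control became 10 with a fold change over 1.5, and were between 25 and 29 without 1 library. The 10 lower against the Cre control became 3 with a fold change over 1.5 and were between 5 and 25 without 1 library, with the highest count without Cre control replicate 1. They were 13 with libraries centred on their medians, 12 with quantile normalization, and 8 when only the 6 libraries compared were fitted or when weakly expressed genes were kept. The 1 subunit higher against the floxed control became 2 with only the 6 libraries compared and was between 1 and 2 without 1 library. The 1 higher against the Cre control became 0 with only the 6 libraries compared or with a fold change over 1.5, and was between 0 and 1 without 1 library. Between the controls, the count higher was 0 and became 1 without Cre control replicate 1, and the range without 1 library was 0 to 1. No result reversed.

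Gabrb2 and Gabrq also lost their call against the Cre control when weakly expressed genes were kept (adjusted p = 0.051 and 0.0673) and with only the 6 libraries compared (0.0784 and 0.0907), as did Chrna5 in the latter (0.0709), and Gabrq with quantile normalization (0.0689). Gria2, Gabra2 and Gabra5 passed against both controls in each of these fits and in every fit without 1 library.

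With the replicate number as a replicate block, 27 were lower and 2 higher against the floxed control, and 15 lower and 1 higher against the Cre control, where Gabrq did not pass (adjusted p = 0.0525). Libraries with the same number correlated between -0.0272 and 0.2603 after removal of the genotype means, and not all above 0.1. Those with different numbers correlated between -0.2824 and 0.161. The labels do not say whether a shared number means a shared litter or batch, and this was not tested. Depth sets no interval here, since it is unknown.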

Other observations

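Metabotropic receptors act through G proteins and have the same transmitters as the channels above. Of 12 tested, 8 were lower in the cKO against the floxed control (median log2 fold change -0.37) and 4 against the Cre control (median -0.20): Grm5, Grm3, Gabbr1 and Gabbr2. The shares lower over all genes tested were 18.8% and 4.85%, in the same order of controls. Grm5, a group I glutamate receptor, fell by 0.93 (adjusted p = 0.000689 by limma) and 0.69 (adjusted p = 0.0131). Gabbr2 and Gabbr1, which together form the GABA-B receptor, fell by 0.79 and 0.46 against the floxed control and by 0.54 and 0.24 against the Cre control. The muscarinic receptors Chrm2 and Chrm3 fell by 0.54 and 0.43 against the floxed control and did not pass against the Cre control (adjusted p = 0.0932 and 0.109).

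Of 5 other ligand-gated channels tested, all P2X receptors opened by ATP, 0 passed against either control by limma, and 1 was lower than in the floxed control at an unadjusted p under 0.05. At that unadjusted limit, 3229 of the 14029 genes tested were lower than in the floxed control. P2rx4 and P2rx7 had -0.11 and -0.20 against the floxed control (adjusted p = 0.365 and 0.0776), and P2rx3 had -0.37 (adjusted p = 0.121).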
